A study of Mus musculus with 1057 samples.

Results

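The cells described here were sorted as GFP-positive from the skin of Gfi1-GFP mouse embryos at 2 embryonic ages, E16.5 and E17.5, and carry the label hematopoietic cell. They were found by label, reporter strain, age and sort gate, and make up 12.6% of the 1057 cells in the series, 78 cells at E16.5 and 55 at E17.5. The 2 hematopoietic cells sorted as GFP-negative at birth (P0) were left out. The study profiled single skin cells by Smart-seq2, a full-length RNA method, to follow Merkel cells, the touch-sensing cells of the epidermis. The mice were heterozygous for a GFP reporter at the Gfi1 or the Sox2 locus on an outcrossed Swiss Webster background, and the methods describe 1 litter for each reporter and age, apart from Sox2-GFP at P0. The comparison cells were all GFP-positive: 650 Merkel cells (Gfi1-GFP at E16.5, E17.5, P0 and P6, together with Sox2-GFP from E18.5 to P6), 49 keratinocytes (42 from Sox2-GFP mice and 7 from Gfi1-GFP mice, between E18.5 and P6) and dermal papilla cells (Sox2-GFP, E16.5 to P6, 17.9% of all cells). Per the methods, skin at E16.5 and E17.5 was dissociated whole, without the enzyme dispase, and the postnatal cells came from epidermis. How the labels were assigned is not given in the sources used here, and they may rest on the expression measured in the same cells. The label, the strain and the age nearly coincide, so their parts in any difference between cell types cannot be told apart.

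Mast cells are tissue-resident blood cells that store histamine, heparin-bound proteases and tryptases in granules and release them when the IgE receptor or other receptors are triggered. They depend on the growth factor receptor Kit and on the transcription factors Gata2 and Mitf. Gfi1 encodes a zinc-finger repressor that is active in several blood lineages and also in Merkel cells, which is why a Gfi1 reporter can mark both.

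A median of 5476 genes per cell exceeded 1 TPM, a relative abundance scaled to the same total in every cell, with a range from 3666 to 9275. The median was 5413.5 at E16.5 and 5597 at E17.5. Cell titles fall into 3 sets, P1, P2 and P3, and all of them hold both ages. The median number of genes differed among these sets, at 6014 in P1 (49 cells), 5376 in P2 (47 cells) and 4862 in P3 (37 cells). TPM values do not carry the read depth of each cell.

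The promoters of 2 mast cell genes are shown because Gata2, whose family binds GATA letters, was high in every cell. The 150 bases before the transcription start are shown on the strand of the gene (RefSeq, build GRCm38.p6, both on the minus strand), with the letters GATAA, or TTATC where they lie on the other strand, in capitals. The Cpa3 window is chr3:20242182-20242331 and the Ms4a2 window is chr19:11623720-11623869.
Cpa3: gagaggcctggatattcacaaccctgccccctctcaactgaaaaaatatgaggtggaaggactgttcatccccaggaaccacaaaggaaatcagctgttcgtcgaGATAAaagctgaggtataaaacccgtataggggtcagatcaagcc
Ms4a2: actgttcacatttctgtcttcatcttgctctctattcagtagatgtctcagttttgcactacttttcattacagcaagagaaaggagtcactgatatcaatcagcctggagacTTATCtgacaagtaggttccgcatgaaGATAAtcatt
Within the 250 bases before the start, GATAA on either strand was present in Cpa3, Cma1 and Ms4a2, and these letters were not in the windows of Hdc, Kit or Gata2. Across 32851 promoters of the same length, 22.6% held GATAA on either strand. A match of letters is a description of the sequence and not evidence of binding.

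All of these cells carried the transcripts of mast cells at high level. Cma1, which encodes a chymase, ranged from 18095 TPM to 121550 TPM with a median of 67430 TPM. Cpa3, the mast cell carboxypeptidase, had a lowest value of 19135 TPM, a median of 53384 TPM and a highest value of 153574 TPM. The tryptase gene Tpsb2 ran from 3708 TPM to 94514 TPM, with a median of 33508 TPM. Every cell was therefore far above 10 TPM for all 3 genes, at both ages. Hdc, the enzyme that makes histamine, had a median of 15295 TPM at E16.5 and 21412 TPM at E17.5, and its lowest cell stood at 3207 TPM. Kit lay between 129.2 TPM and 979 TPM and Gata2 between 92.3 TPM and 1202 TPM, again with no cell near 0. Cma1, Cpa3, Tpsb2, Hdc and Tpsab1 together made up a median of 18.6% of all TPM in a cell, with a range from 6.26% to 33.8%.

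Of the 12 mast cell markers in the gene table, 10 exceeded 10 TPM in most cells, and each cell had between 8 and 12 of them above that level. The exceptions were Fcer1a, the alpha chain of the IgE receptor, above 10 TPM in 13 cells (9.77%, exact 95% binomial interval 5.31% to 16.1%), and the protease gene Mcpt4, above 10 TPM in 44 cells (33.1%, interval 25.2% to 41.8%). Ms4a2, the beta chain of the same receptor, exceeded 10 TPM in 87.2% of cells. Binomial intervals in this text cover counting of cells only.

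Some genes used as basophil markers were also present. Cd200r3, a surface receptor, exceeded 10 TPM in 96.2% of cells and had a mean of 7.71 ± 1.71 on the log2(TPM + 1) scale (SD over all cells of both ages). Il4, the cytokine interleukin 4, exceeded 10 TPM in 66 of 78 cells at E16.5 and 43 of 55 at E17.5, and the protease gene Prss34 in 64.7% of cells. Prss34 split the cells widely, from 0 to 20500 TPM. The basophil protease Mcpt8 exceeded 10 TPM in 28 cells (21.1%). Hdc, Gata2 and Fcer1a belong to both marker lists, so the lists are not independent. By the share of list genes above 10 TPM, the mast cell list was the best of the lineage lists in all but 15 cells, in which the basophil list, of 7 genes, was the best.

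Defining markers of several other blood lineages were at or near 0. No cell exceeded 10 TPM for Ms4a1 (B cells), Ncr1 (NK cells), Epx or Prg2 (eosinophils), Mpo or Elane (neutrophil precursors), Ccr2 or Ly6c2 (monocytes), C1qa or Mrc1 (macrophages), Cd207 (Langerhans cells), Flt3 (dendritic cells and progenitors) or Pf4 (platelets). All 8 genes of the alpha-beta T cell list stayed at or below 10 TPM in every cell, as did Trdc and Cd3d. Single genes of these lists were present. Of the 10 B cell genes, 5 exceeded 10 TPM in no cell, and no cell had more than 1 above it. Cd79b was the most abundant of them, with a mean of 18.7 TPM. Cd3e, a chain of the T cell receptor complex, exceeded 10 TPM in 3 of 78 cells at E16.5 and in 19 of 55 cells at E17.5, with a highest value of 221.6 TPM. Nkg7, a granule protein of cytotoxic cells, exceeded 10 TPM in 49.6% of cells, and Cd68, a lysosomal protein known from macrophages, in 29.3%. Hba-a2, a globin gene with near-identical copies, reached 29975 TPM in its highest cell but exceeded 10 TPM in only 14.3% of cells. Of the erythroid list, 1 gene exceeded 10 TPM in most cells. Gata1, the most abundant gene of that list at E16.5, had a mean of 177.8 TPM there. Gata1 and Epor of the list were higher than in each of the other cell types in the pool comparison described later. The 3 globin genes tested were not called. Of the 5 tested erythroid genes, 4 would not have been tested without the hematopoietic cells. Ctsg, a granule protease of the neutrophil list, exceeded 10 TPM in 27.1% of cells, and Itga2b, an integrin of the platelet list, in 38.3%. Il5ra, the receptor for interleukin 5 from the eosinophil list, exceeded 10 TPM in 36.1% of cells and Siglecf of the same list in 21.1%. Cx3cr1, a chemokine receptor of the macrophage list, exceeded it in 33.1% of cells. Il5ra and Cx3cr1 were higher than in each of the other cell types in the pool comparison described later, by 1.91 and 2.12 against Merkel cells on the log2 scale. Sox13, a transcription factor of the gamma-delta T cell list, exceeded 10 TPM in 51.9% of cells. Its mean was 22.5 TPM, compared with 32.4 TPM in Merkel cells. In the pool comparison it was higher than in dermal papilla cells and was not called against Merkel cells or keratinocytes.

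The innate lymphoid list shares Kit with the mast cell list. Between 2 and 5 of its 12 genes exceeded 10 TPM in a cell, with a median of 4. Id2, an inhibitor of transcription factors, had a median of 923 TPM and exceeded 10 TPM in every cell, as did Kit. Areg, Il2ra and Zbtb16 exceeded 10 TPM in none, and Gata3 did so in 24.8% of cells and Il7r in 20 cells. In the pool comparison described later, Id2, Kit and Il1rl1 were higher in each comparison. Gata3 was lower than in keratinocytes and Rora lower than in dermal papilla cells. Of the 6 tested genes of the list, 1 would not have been tested without the hematopoietic cells.

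Genes of the stem and progenitor list were also present. Of its 11 genes, 5 exceeded 10 TPM in most cells, and Flt3, Hlf, Mecom and Procr exceeded it in none. Gata2 and Kit stand on this list as well as being known from mast cells. Cd34, a surface glycoprotein, exceeded 10 TPM in 60.9% of cells, Cd48, a surface receptor, in 58.6%, and Myb, a progenitor transcription factor, in 78.2%. These 5 genes were higher than in each of the other cell types in the pool comparison described later, and Itga2b was too. Of the 6 tested genes of the list, 3 would not have been tested without the hematopoietic cells, nor would Itga2b. The sixth, Meis1, a homeobox gene, differed by -3.09 from dermal papilla cells (limma adjusted p = 0.0152) and was not called against Merkel cells or keratinocytes.

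**Figure D1:**
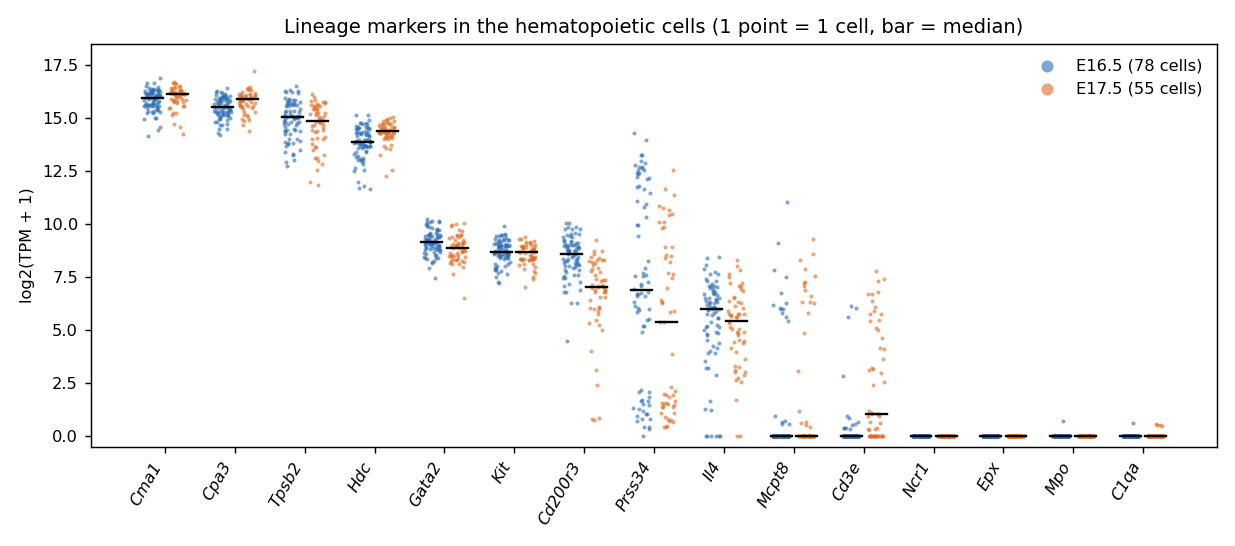
Expression of lineage markers in each hematopoietic cell on the log2(TPM + 1) scale, with E16.5 in blue, E17.5 in orange and a bar at the median. Cma1, Cpa3, Tpsb2, Hdc, Gata2 and Kit were high in every cell, Prss34 and Mcpt8 varied between cells, and Ncr1, Epx, Mpo and C1qa lay at or near 0.

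The levels of the 4 label markers are given as a description. They cannot check the label, which may rest on the same expression. Laptm5, a lysosomal membrane protein of blood cells, ranged from 574 TPM to 5785 TPM and exceeded 10 TPM in every cell. Spi1, the transcription factor PU.1, exceeded 10 TPM in 91.7% of cells and Ptprc, which encodes CD45, in 85.7%. Cd52 was the least frequent, above 10 TPM in 73 cells (54.9%). In the 650 Merkel cells, Ptprc exceeded 10 TPM in none, Spi1 in 1, Laptm5 in 12 and Cd52 in 15.

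The reporter was also present as RNA. EGFP had a median of 48.2 TPM at E16.5 and 34.5 TPM at E17.5, and Gfi1 a median of 52.1 TPM and 57.8 TPM. Across the cells, EGFP and Gfi1 on the log2 scale had a Pearson correlation of 0.81, a description over cells that share libraries and depth. Gfi1 exceeded 10 TPM in 92.5% of these cells and in 70.6% of Merkel cells. Sox2, the other reporter locus, did not exceed 0.42 TPM in any hematopoietic cell.

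To ask which genes set these cells apart, the mean log2(TPM + 1) was taken over the cells of each label, reporter and age with at least 5 cells. These means, called pools here, number 2 for hematopoietic cells, 5 for Merkel cells, 4 for keratinocytes and 3 for dermal papilla cells. They were compared by limma with Benjamini-Hochberg adjustment over 12564 genes. Against Merkel cells, 1839 genes (14.6%) were higher and 899 (7.16%) lower in hematopoietic cells. When the 4 and 2 Merkel cells of the same litters were let in as pools, 1616 were higher and 430 lower. Against keratinocytes, 1220 genes (9.71%) were higher and 863 (6.87%) lower. Against dermal papilla cells, 1226 genes (9.76%) were higher and 950 (7.56%) lower. These counts, and the percentages used below as background, depended on the fit. Weighting pools by cell number gave 3536 higher and 1956 lower against Merkel cells. Leaving out either hematopoietic pool gave far fewer calls, as described under the processing. The split depended on how a pool was summarised. With the log2 of the mean TPM in place of the mean of the log2 values, a smaller share of the called genes was higher. It was 38.8% against Merkel cells (67.2% in the main fit), 49.3% against keratinocytes (58.6%) and 30.7% against dermal papilla cells (56.3%). With each pool centred on its median gene, 54.4% were higher against Merkel cells, 64.7% against keratinocytes and 55.9% against dermal papilla cells. The median difference of all genes tested was 0.16 against Merkel cells and -0.14 against keratinocytes on the log2 scale. The 3 comparisons share the same 2 hematopoietic pools, and a gene detected in those 2 pools alone passed the filter on low values and had to differ.

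The largest differences were in mast cell granule genes. Cpa3 (chromosome 3, 20215620 to 20242181) averaged 15.50 at E16.5 and 15.78 at E17.5, whereas the 12 other pools lay between 3.56 and 4.55. Its difference was 11.52 ± 0.46 (SE, log2 scale) from Merkel cells, 11.65 ± 0.48 from keratinocytes and 11.40 ± 0.51 from dermal papilla cells, with limma adjusted p of 4.00e-11, 6.34e-11 and 1.60e-10. Cma1 (chromosome 14, 55941451 to 55944675) differed by 11.53, 11.62 and 11.38, in the same order. Hdc (chromosome 2, 126593667 to 126619299) differed by 11.27, 11.39 and 11.30, and Tpsb2 (chromosome 17, 25366305 to 25369098) by 11.25, 11.38 and 11.08. Tpsab1, a second tryptase whose reads may be shared with Tpsb2, differed by 9.81, 10.28 and 10.05 with a larger SE of 1.03 to 1.12, and its 2 hematopoietic pools were far apart at 9.46 and 13.99. The granule genes were not at 0 elsewhere. Cma1 exceeded 10 TPM in 93.7% of Merkel cells, with a median of 21.4 TPM against 67430 TPM in the hematopoietic cells, and it was about as frequent in keratinocytes (91.8%) and dermal papilla cells (91.5%). The source of this trace was not tested.

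Genes for receptor signalling were close behind. Fcer1g, the gamma chain shared by Fc receptors, differed by 10.73 from Merkel cells, 11.10 from keratinocytes and 10.64 from dermal papilla cells. Tyrobp, an adaptor of similar function, differed by 10.75, 10.82 and 10.87, and Fcgr3, an IgG receptor, by 9.38, 9.57 and 9.42. Srgn, the granule proteoglycan core protein serglycin, differed by 10.56, 10.87 and 10.51. Serpinb1a, a protease inhibitor, differed by 10.89, 10.40 and 10.82, and Laptm5, a marker of the label itself, by 9.91, 10.22 and 10.15. Cyp11a1, the enzyme that starts steroid hormone synthesis from cholesterol, differed by 9.31, 9.42 and 9.31. For each of these genes the limma adjusted p was at most 5.65e-10, and both hematopoietic pools lay above each of the 12 other pools.

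Fewer genes were lower in the hematopoietic cells than in every other pool, and several of the top ones are processed pseudogenes whose reads can be shared with a parent gene. Rpl34-ps1 differed by -5.12 from Merkel cells, -5.92 from keratinocytes and -6.58 from dermal papilla cells, and its hematopoietic pools were 5.61 and 3.46. The processed pseudogenes Gm13841 and Gm8210 were lower in each comparison too. Against Merkel cells of their own litters, however, the pseudogenes were not lower throughout. At E16.5 the hematopoietic cells stood 1.14 above 4 Merkel cells for Gm13841 and 2.19 above them for Gm8210 on the log2 scale, and at E17.5 they stood 2.37 above 2 Merkel cells for Rpl34-ps1. Tsc22d1, a leucine-zipper regulator, differed by -4.55, -4.71 and -6.56. Hmgn3, a nucleosome-binding protein, differed by -6.05, -4.53 and -4.47, and Tmem176b, a membrane protein, by -5.97, -4.28 and -7.38. The cytoskeletal genes Pdlim4 (-8.09, -4.08 and -4.12) and Pls3 (-3.99, -4.92 and -4.28) completed the group. In the same small groups at E17.5 the hematopoietic cells also stood above the 2 Merkel cells for Hmgn3 (0.98), Tmem176b (0.87) and Pls3 (0.55). However, 1 of those 2 Merkel cells had very few genes above 1 TPM. For the Merkel cell marker Krt8, 1 of the 2 stood at 1.77, below the hematopoietic mean of 2.85, which goes against its label. Several of these calls were lost in other settings, among them Pdlim4, Gm13841 and Tmem176b.

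**Figure D2:**
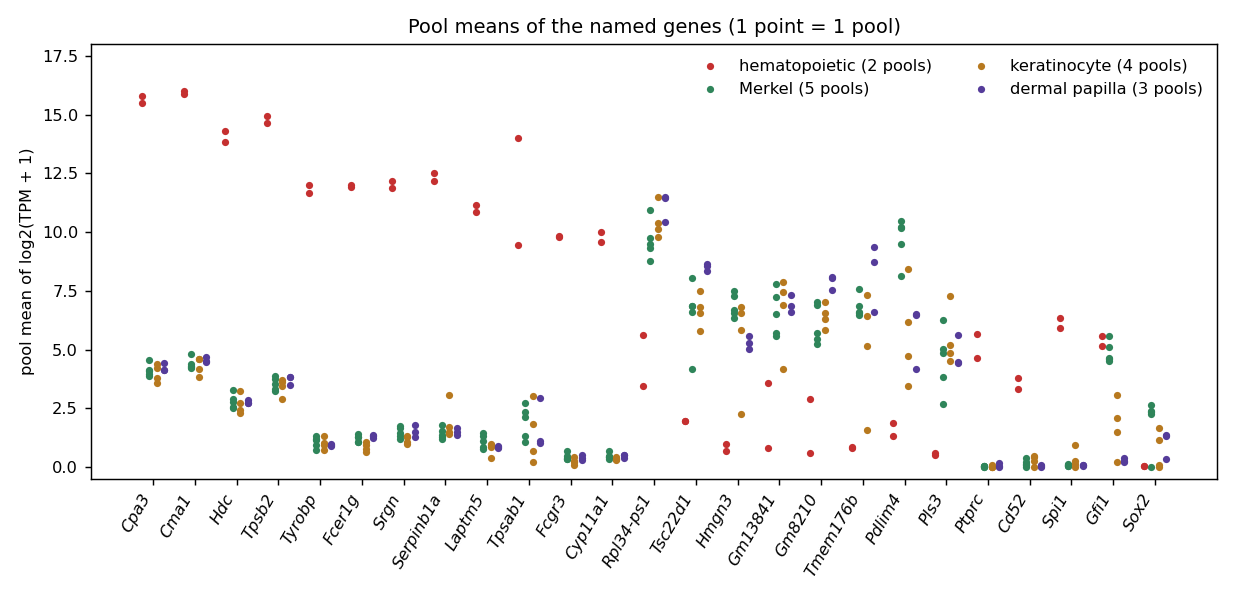
Mean log2(TPM + 1) of each pool for the named genes, coloured by cell type. For the 12 genes at the left the 2 hematopoietic pools lie above all 12 other pools, and for the next 8 below them, while Gfi1 overlaps with Merkel cells.

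Gfi1 was part of the sort, so its levels are given without a test. The hematopoietic pools averaged 5.59 at E16.5 and 5.17 at E17.5 on the log2 scale. The Merkel cell pools ranged from 4.51 to 5.57, the keratinocyte pools from 0.22 to 3.06 and the dermal papilla pools from 0.23 to 0.40. All dermal papilla cells and most keratinocytes were sorted by Sox2-GFP. Of the 13 other genes tested for the Gfi1 repressor complex, 1 was higher and 3 lower against Merkel cells, namely Rcor1 up and Rcor2, Runx1t1 and Cbfa2t2 down. Against keratinocytes Cbfa2t3 was higher and none was lower by limma. Against dermal papilla cells Rcor1 and Cbfa2t3 were higher and Runx1t1, Cbfa2t2 and Phf21a lower. In the order Merkel cells, keratinocytes and dermal papilla cells, 7.69%, 7.69% and 15.4% of the 13 were higher. Of all genes, 14.6%, 9.71% and 9.76% were higher. The shares lower were 23.1%, 0% and 23.1% of the 13, compared with 7.16%, 6.87% and 7.56% of all genes. No list test was made.

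Lists of related genes described the difference further, as counts beside the background percentages above. The counts are descriptions, because a member detected in the 2 hematopoietic pools could pass the filter on their strength and then had to differ. Of all 12564 genes tested, 642 would not have been tested without the hematopoietic pools. All 13 tested genes for mast cell proteases and granules were higher in each of the 3 comparisons, with a median difference of 7.39 from Merkel cells, and 5 of them would not have been tested without those pools. The 11 tested mast cell markers, 5 of which depended on those pools, and the 5 tested basophil markers, of which 3 did, were higher too. Of 35 genes for leukocyte signalling and cytoskeleton, 31 were higher against Merkel cells, 33 against keratinocytes and 31 against dermal papilla cells, and 20 of the 35 depended on those pools. Examples are Rac2, a GTPase of blood cells (9.10 from Merkel cells), Cd53, a tetraspanin (8.37), and Coro1a, an actin regulator (8.62). Lsp1, an actin-binding protein of leukocytes, differed by -1.35 from dermal papilla cells (limma adjusted p = 0.000207). Among cytokine and growth factor receptors, 14 of 15 were higher against Merkel cells, 11 against keratinocytes and 12 against dermal papilla cells, and 8 of the 15 depended on those pools. They included Kit (6.98 from Merkel cells), Il1rl1, the receptor for interleukin 33 (7.31), and Csf2rb, the shared beta chain for interleukin 3 signalling (6.76). Of 8 integrin, selectin and chemokine receptor genes, 7 were higher in each comparison and 7 depended on those pools. Examples among them are Ccr8 (6.95 from Merkel cells) and Selplg (6.91). The eighth, the chemokine receptor gene Cxcr4, differed by -2.78 from dermal papilla cells (limma adjusted p = 0.00406).

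Blood transcription factors were mixed. Of 30 tested beside Gfi1, 9 of which depended on the hematopoietic pools, 12 (40%) were higher and 1 (3.33%) lower against Merkel cells, where 14.6% and 7.16% of all genes were. Against keratinocytes 12 were higher and 6 (20%) lower, where 9.71% and 6.87% of all genes were. Against dermal papilla cells 12 were higher and 7 (23.3%) lower, where 9.76% and 7.56% of all genes were. Gata2 (8.68 from Merkel cells), Gata1 (5.85), Ikzf1 (5.74) and Batf (5.53) were higher in all comparisons, and Bcl11a differed by -3.82 from Merkel cells. Of 30 secreted cytokines and effectors only 5 were tested, and 4 of these depended on the hematopoietic pools, so no count is given. Il4 differed by 5.19, Tnf by 2.36, Il6 by 1.55 and Tgfb1 by 1.14 from Merkel cells. The fifth tested gene, the growth factor gene Igf1, differed by -4.80 from Merkel cells (limma adjusted p = 0.00573) and was not called in the other comparisons. Of 4 tested genes for MHC class II presentation, 1 of which depended on the hematopoietic pools, H2-DMb1 and H2-Oa were higher in each comparison. Cd74 (0.15, -0.58 and 0.25) and H2-DMa (-0.29, -1.02 and -0.84) were not called in any of the 3.

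For Merkel cells, keratinocytes and dermal papilla cells, the members of each marker list were lower than in the population it marks. Of all genes tested, 7.16%, 6.87% and 7.56% were lower in these comparisons. All 8 Merkel cell markers were lower than in Merkel cells, with Krt8 differing by -9.03 on the log2 scale (limma adjusted p = 4.88e-06). All 10 keratinocyte markers were lower than in keratinocytes, among them Perp (-9.80), and all 10 dermal papilla and fibroblast markers were lower than in dermal papilla cells, among them Col3a1 (-9.06). In the hematopoietic cells Krt8 had a median of 5.45 TPM and exceeded 10 TPM in 2 cells, and Atoh1, which specifies Merkel cells, exceeded 10 TPM in none. Single cells stood apart. In 1 cell at E17.5, 6 of the 10 dermal papilla and fibroblast genes exceeded 10 TPM, with a sum of 11076 TPM against a median of 0.34 TPM at that age. In 1 cell at E16.5, 5 of the 6 melanocyte genes exceeded 10 TPM, with a sum of 10654 TPM against a median of 27.2 TPM. No doublet caller was run, and what these cells hold was not tested. Of 13 stress and immediate early genes, none was called against Merkel cells by limma, whereas Hspa1a and Hspa1b were lower against keratinocytes and Dusp1 was higher against dermal papilla cells. Shares of 0, 2 and 1 in 13 genes are to be read beside the shares of all genes. These were 14.6% higher and 7.16% lower against Merkel cells, 6.87% lower than in keratinocytes and 9.76% higher than in dermal papilla cells.

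The E16.5 and E17.5 litters also held 4 and 2 Merkel cells from the same Gfi1-GFP sorts, too few to enter the pools. Cpa3 was 15.50 in hematopoietic cells and between 5.54 and 6.03 in the 4 Merkel cells at E16.5. Gfi1 averaged 5.59 in the hematopoietic cells and 5.98 in the Merkel cells of that litter, which ranged from 2.93 to 7.65. At E17.5 Gfi1 averaged 5.17 in the hematopoietic cells, and the 2 Merkel cells were at 0.26 and 7.51, on either side of that mean. Krt8 at E16.5 was 2.48 in hematopoietic cells and 13.12 to 13.94 in the Merkel cells. At E17.5 the hematopoietic mean of Krt8 was 2.85, and the 2 Merkel cells were at 1.77 and 13.49. In 1 of these 2 cells very few genes exceeded 1 TPM, although 3320 genes were above 0.

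The 2 ages come from 1 litter each, so no test was made and the values are given side by side. Tpsab1 had a median of 1034 TPM at E16.5 and 20233 TPM at E17.5. Mrgprb2, a receptor for basic secretagogues, exceeded 10 TPM in 44.9% of cells at E16.5 and 87.3% at E17.5. Ctla2a, an inhibitor of cysteine proteases with a close copy Ctla2b, rose from a mean of 3.09 to 7.83 on the log2 scale, and Calca, which encodes calcitonin and its related peptide, from 3.79 to 7.86. The tryptase Tpsg1 went the other way, from a mean of 8.64 to 6.36, as did Cd200r3 from 8.48 to 6.63. Cpa3 and Cma1 were similar at both ages. Within each title set the direction was the same for Tpsab1, Mrgprb2, Ctla2a, Calca and Cd200r3. For Mrgprb2, 41.4%, 46.4% and 47.6% of E16.5 cells in P1, P2 and P3 exceeded 10 TPM, and at E17.5 the shares were 18 of 20, 16 of 19 and 14 of 16 cells.

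Pseudogenes also differed strongly between the litters. Gm5619 exceeded 10 TPM in 77 of 78 cells at E16.5 and in 2 of 55 cells at E17.5, and Rpl7a-ps3 in 74 and 1. The few Merkel cells of the same litters, 4 and 2, had means of 6.82 at E16.5 and 0.46 at E17.5 for Gm5619, and of 5.03 and 0 for Rpl7a-ps3. Among Gfi1-GFP Merkel cells of later ages, Gm5619 averaged 0.40 at P0 and 6.82 at P6, and Rpl7a-ps3 0.14 and 5.20. Each age is 1 litter, so age and litter cannot be told apart.

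**Figure D3:**
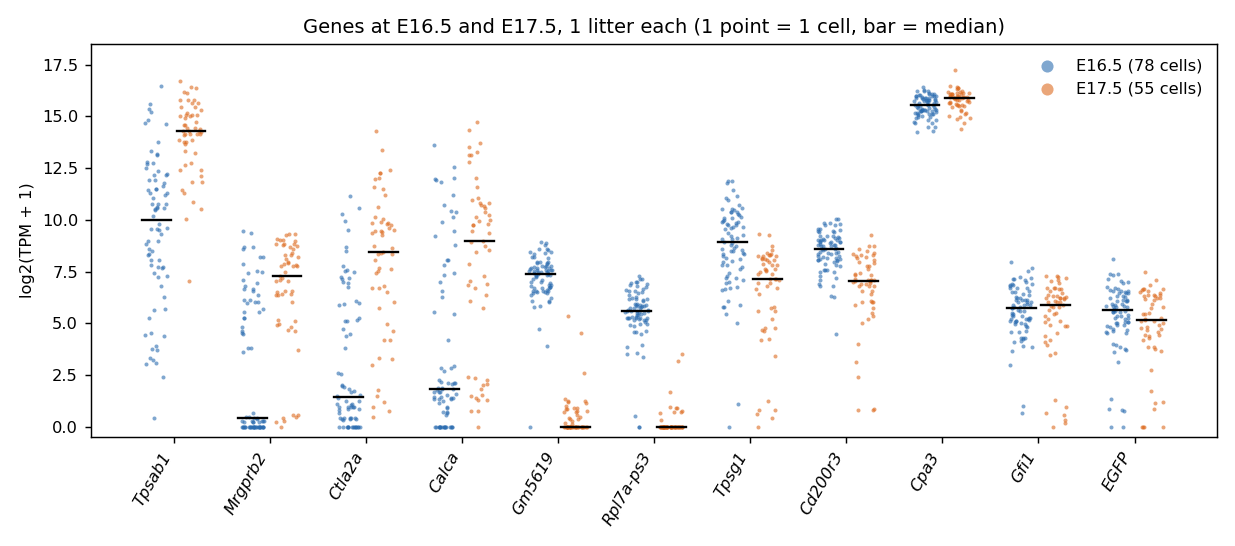
Expression in each cell on the log2(TPM + 1) scale at E16.5 (blue, 78 cells) and E17.5 (orange, 55 cells), 1 litter each, with bars at the medians. Tpsab1, Mrgprb2, Ctla2a and Calca had higher medians at E17.5, Gm5619 and Rpl7a-ps3 were near 0 there, and Cpa3 overlapped.

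Clustering of the cells gave 5 clusters of 35, 31, 29, 23 and 15 cells, and the best lineage list of each was the mast cell list, with 10 markers in most of its cells. All 5 are therefore mast cell-like by the markers used, and they are described by their leading genes without a test, since the same genes formed them. Cluster 1 was led by 1700006J14Rik, Gm5619 and Mns1 and held 32 cells at E16.5 and 3 at E17.5. Cluster 2 was led by Pilrb2, Pilra and Mrgprb2, with Tpsab1 at 14.01 compared with 10.52 in the rest, and held 7 and 24 cells. Cluster 3 was led by the cell division genes Asf1b, Cks1b and Pclaf, and held 19 and 10 cells. Cluster 4, led by Ypel3, Calca and Cd34, held 19 and 4 cells, and only 1 of its cells was in title set P1. Cluster 5, led by Ctla2a, Cd68 and Calca, held 1 and 14 cells. The first principal component explained 7.08% of the variance and correlated across cells with the number of genes above 1 TPM (Pearson r = -0.69). The cluster boundaries moved with the clustering settings.

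Proliferation varied among the cells. Cluster 3 had a median of 18 of 25 cell cycle genes above 10 TPM, compared with 3 to 8 in the others. At least 10 of the 25 genes exceeded 10 TPM in 28 of 78 cells at E16.5 (35.9%, interval 25.3% to 47.6%) and in 13 of 55 at E17.5 (23.6%). The title sets differed at E16.5, with 20 of 29 cells in P1, 4 of 28 in P2 and 4 of 21 in P3. The gene number of the cells also differed between these sets, and its part in this was not tested. In the pool comparison 2 of 24 cell cycle genes, Mcm3 and Mcm6, were higher than in Merkel cells, where 14.6% of all genes were. Against dermal papilla cells 1, Mcm3, was higher, where 9.76% of all genes were, and none was called against keratinocytes by limma.

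**Figure D4:**
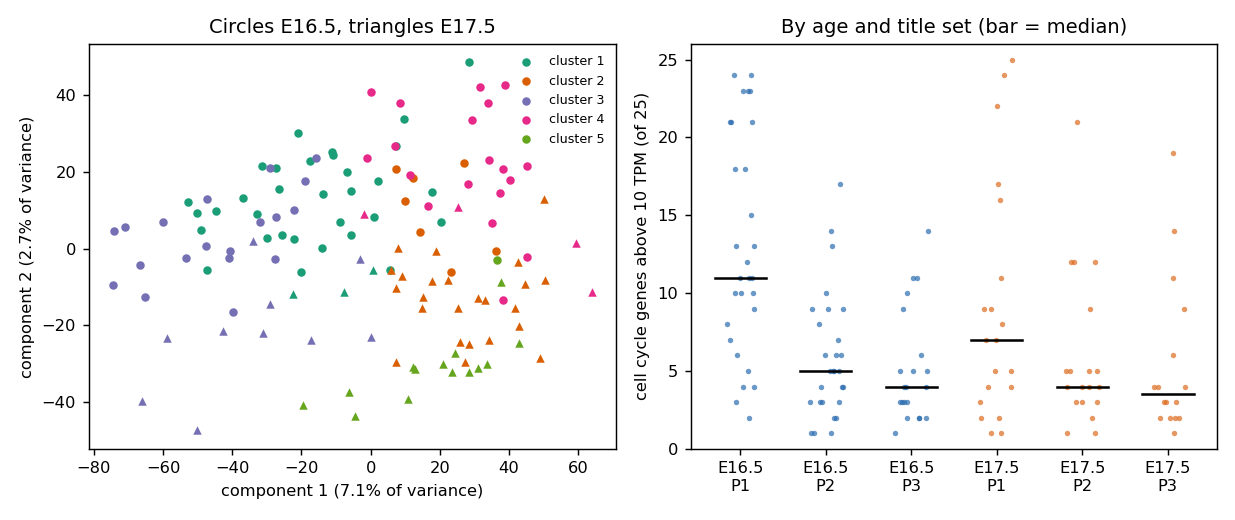
Left, the first 2 principal components of the cells, coloured by cluster, with circles for E16.5 and triangles for E17.5. Right, the number of 25 cell cycle genes above 10 TPM in each cell by age and title set, where the median is 11 in the E16.5 cells of P1 and between 3.5 and 7 in the other 5 sets.

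The transcript-level values, matched to the annotation by identifier for 122200 of 123064 transcripts, described the isoforms. Of the transcripts above 10 TPM in a hematopoietic cell, a median of 75.6% were annotated as protein coding, 9.19% as retained intron and 4.35% as subject to nonsense-mediated decay. The mean share of retained intron transcripts was 9.11% at E16.5 and 9.14% at E17.5, and the 5 Merkel cell pools ranged from 9.18% to 11.1%, the 4 keratinocyte pools from 7.45% to 8.88% and the 3 dermal papilla pools from 9.91% to 11.02%. Kit was mostly Kit-204 (59.2% of its TPM) and Kit-201 (34.7%), both protein coding. Mitf differed from the other genes examined, since Mitf-206, a retained intron transcript, took 80.5% of its TPM at E16.5 and 79.4% at E17.5, and the protein-coding Mitf-202 took 9.57% over both ages.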

How the data were processed

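Single cells were profiled by Smart-seq2. Per the labels and methods, the authors trimmed reads with Trimmomatic, aligned them with STAR 2.5.2b to GRCm38.p6, quantified with RSEM 1.3.0 and deposited gene and transcript TPM, which sum to the same total in each cell, so the depth of each cell cannot be recovered. Whether the described index hopping correction precedes the deposited values is not given in the sources used here. Each column is 1 cell. Of 49672 gene rows, 49326 had a symbol.

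Cells were averaged as log2(TPM + 1) into pools (1 label, reporter and age, at least 5 cells), because cells are not replicates and no animal is labelled, and p-values measure only the spread between pools. Genes above 1 TPM in at least 20% of the cells of at least 2 pools were compared by limma 3.58.1 (R 4.3.3) with a mean-variance trend and Benjamini-Hochberg threshold 0.05. Fold changes on this scale understate the change of low genes. Clusters came from scanpy 1.11.5 (2000 variable genes, 15 components, 15 neighbours, Leiden resolution 1), with no doublet caller. The scripts were tested on simulated data.

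Named genes were the label markers and reporter loci, the 12 higher and 8 lower genes with the largest smallest difference over the 3 comparisons among those past 0.05 in each and with both hematopoietic pools beyond all others, the top 8 of each cluster, and up to 4 members of each list. Other members given for their values were chosen after these were seen. The members and lists were chosen with earlier results of these data known. Some markers of the lists are not reported here.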

Additional observations from a re-analysis of the deposited data

Results flagged for a closer look

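Of 50 groups of Merkel cell or keratinocyte pools of the named genes, 5 had 1 pool far from the others, where chance flags about 1 in 20. Cma1 was highest in the Merkel pool of Gfi1-GFP P0, at 4.83 on the log2(TPM + 1) scale. Serpinb1a was 3.08 in the keratinocyte pool of Sox2-GFP P0, and 1.43 to 1.71 in the other keratinocyte pools. Cyp11a1 was 0.43 and Ptprc 0.091 in the keratinocyte pool of Sox2-GFP E18.5, both close to 0. Sox2 was 0 in the 7 Merkel cells of Sox2-GFP P6, and 2.24 to 2.63 in the other Merkel pools.

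A signal appeared in a cell that no comparison used. The GFP-negative hematopoietic cell of Gfi1-GFP P0 had 1288 TPM of Cd3e and 502 TPM of Trdc, whereas the highest of 30 GFP-negative keratinocytes had 0.29 TPM and 0.16 TPM.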

How the results depend on the processing

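Differences of the named genes kept their direction and side of the threshold in 2088 of 2151 recalculations, 61 lost the threshold, 1 gained it and 1 reversed. The reversal was Gfi1 against Merkel cells, a difference of -0.58 with the log2 of the pool mean TPM, given as a description since the sort used Gfi1, and the cause was not tested. Pools of at least 2 cells lost the threshold most often, in 13 of 75 differences, some of which were not called in the main fit. Named genes that were not tested in a setting are not counted for it. Weighting pools by cell number raised the calls to 5492 against Merkel cells and 4151 against dermal papilla cells. Against keratinocytes, fitting only the 2 cell types gave 1063 calls and title set P3 alone 1115. Leaving out 1 pool gave 997 to 3254 calls against Merkel cells, 591 to 2562 against keratinocytes and 822 to 2580 against dermal papilla cells, with the fewest without a hematopoietic pool: 1116, 663 and 879 without E16.5 and 997, 591 and 822 without E17.5. The lone remaining pool was then assumed to vary like the other groups, and genes found in hematopoietic cells alone no longer passed the filter. Of the mast cell list, 8 genes were called higher against Merkel cells without either hematopoietic pool, and 7 when the 10 most abundant genes were left out, some of which are on that list. All cells stayed in clusters named from the mast cell list under each clustering alternative, but resolution 0.5 gave 2 clusters and resolution 2 gave 12. No paired analysis was possible by replicate number because the numbers in the titles name cells and not replicates; each title set was fitted alone instead. A fit with the litter as a random block (correlation 0.17) called 1841 genes higher and 908 lower against Merkel cells and kept every call of the named genes. Precision is limited by 2 hematopoietic pools and by read depth, which TPM does not carry.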

Other observations

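The 2 GFP-negative hematopoietic cells of P0 differed from the described cells and from each other. The Gfi1-GFP cell had 2115 TPM of Tcrg-V5 and 2590 TPM of Trdv4, variable segments of the gamma-delta T cell receptor, and 1412 TPM of Ptprc, with Spi1 listed at 0. The Sox2-GFP cell had 1639 TPM of C1qa, 1413 TPM of Csf1r and 519 TPM of Adgre1, genes known from macrophages. EGFP was listed at 0 in both, and Cpa3 was 11.7 TPM and 17.2 TPM.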
